A study of Homo sapiens with 24 samples.

Results

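RN7SL1, RN7SL2, RN7SK, RPPH1, RMRP and TERC are short structured noncoding RNAs, and they were chosen by name as 6 of the 60641 gene symbols counted in every library. Their measured values were not used to choose them. All 6 are described in the 24 libraries by CPM (the counts of a gene relative to its library's total, scaled to the usual common depth) and by the share of the library's counts that they took. All 6 passed the filter on low counts in every comparison, TERC with as few as 5 counts in a library.

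RN7SL1 and RN7SL2 are gene copies of 7SL, the RNA backbone of the signal recognition particle, which carries ribosomes making secreted and membrane proteins to the endoplasmic reticulum. RN7SK is the 7SK RNA, which with LARP7, MEPCE and HEXIM proteins holds the kinase P-TEFb (CDK9 with a cyclin T) in an inactive state and so limits the release of paused RNA polymerase II. RPPH1 is the catalytic RNA of RNase P, which trims the 5′ end of precursor tRNAs. RMRP is the RNA of RNase MRP, which cuts precursor ribosomal RNA and shares most of its proteins with RNase P. These RNAs are transcribed by RNA polymerase III, which also makes tRNAs, 5S rRNA and U6. TERC carries the template that telomerase copies onto chromosome ends, and it is a transcript of RNA polymerase II.

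The series measured RNA in A549, a lung adenocarcinoma cell line, and in HCT116, a colorectal carcinoma cell line, before and after CRISPR/Cas9 deletion of the DNA binding domain (DBD) of a noncoding transcript. Total RNA was depleted of rRNA, a directional kit was used, and each of the 8 groups had 3 libraries. The A549 groups were the wild type called WT B (S20, S21 and S22), MSTRG.2513.6 KO (S17 to S19) and MSTRG.4401.1 KO (S23 to S25). The HCT116 groups were WT B (S12 to S14), MSTRG.2513.6 KO (S8, S9 and S11), MSTRG.4401.1 KO (S10, S15 and S16), WT A (1A to 3A) and MSTRG.34636.7 KO (1A to 3A). The labels name no treatment, do not explain the letters A and B, and do not say whether a KO line was 1 clone or whether the 3 libraries of a group came from separate cultures. The p-values therefore measure the spread between these libraries, which may be technical. The counts hold no symbol for the deleted transcripts, so the deletions were not checked here.

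Library totals ran from 25799359 to 102261808 counts, and 3 counts, taken as the floor of detection, correspond to 0.0293 to 0.116 CPM. S8 and S9, labelled as HCT116 with the MSTRG.2513.6 deletion, correlated with A549 libraries at r = 0.933 to 0.991 over 19039 genes and with the other HCT116 libraries at 0.775 to 0.803, while S11 of that group correlated with HCT116 libraries at 0.927 to 0.968. The summed level of 6 colon epithelium markers was 8.01 CPM in S8, 10.5 in S9 and 132 in S11, against 146 to 272 in the other HCT116 libraries and 8.35 to 25.8 in A549. Markers of lung epithelium summed to only 2.197 to 8.67 CPM in any library, the highest in S11. In each A549 group 2 of the 6 averaged over 1 CPM, and in each HCT116 group other than MSTRG.2513.6 KO 3 did. The lung markers therefore did not tell the cell lines apart. Results that rest on S8 and S9 are given with and without them. In these bulk RNA libraries fewer cells of a kind and less RNA per cell cannot be told apart, and intervals on a single library cover counting error only.

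RN7SL1 lies at chr14:49586580-49586878 on the plus strand of hg38 (ENSG00000276168.1, 299 bases), inside RPS29 on the opposite strand. RN7SL2 lies 275672 bp away at chr14:49862550-49862849 on the minus strand (ENSG00000274012.1, 300 bases), inside an uncharacterised lncRNA (ENSG00000282885) on the same strand. Few bases tell reads of these genes apart. RN7SL1 and RN7SL2 were 98.3% identical, with 295 matching bases, 4 substitutions and 1 gap base in their alignment. Of all 100-base windows of RN7SL1, 53.0% were also present in RN7SL2, and 74.5% were present in RN7SL2 or another annotated 7SL copy. How reads that fit both genes were assigned is not given in the sources used here, so the values of RN7SL1 and RN7SL2 are uncertain one by one. For the comparisons of 2 groups, fits with all 7SL copies counted as 1 gene are given with the A549 MSTRG.4401.1 KO results.

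RPPH1 and RMRP are the RNA parts of the related RNase P and RNase MRP enzymes, and they are printed because RNase P and RNase MRP are compared per length further on. RPPH1 (ENSG00000277209.1, 333 bases) lies at chr14:20343075-20343407 on the minus strand, 208 bp from PARP2 on the opposite strand. RMRP (ENSG00000277027.1) lies at chr9:35657754-35658017 on the minus strand, 273 bp from CCDC107. The first 300 bases of RPPH1 and all 264 of RMRP read as follows.
RPPH1: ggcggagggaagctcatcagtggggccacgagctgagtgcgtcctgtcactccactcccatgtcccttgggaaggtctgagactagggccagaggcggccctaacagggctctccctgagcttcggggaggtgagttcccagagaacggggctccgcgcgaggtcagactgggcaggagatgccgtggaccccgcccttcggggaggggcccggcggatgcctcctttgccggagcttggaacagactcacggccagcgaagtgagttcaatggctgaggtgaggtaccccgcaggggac
RMRP: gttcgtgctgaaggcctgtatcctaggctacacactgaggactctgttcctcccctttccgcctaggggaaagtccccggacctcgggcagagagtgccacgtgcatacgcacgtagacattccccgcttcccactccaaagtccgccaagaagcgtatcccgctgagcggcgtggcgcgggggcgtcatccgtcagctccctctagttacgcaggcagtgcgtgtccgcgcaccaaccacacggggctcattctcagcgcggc

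RN7SK (ENSG00000283293.1, 328 bases) lies at chr6:52995621-52995948 on the plus strand, 317 bp from GSTA4, and TERC (ENSG00000270141.3, 541 bases) lies at chr3:169764520-169765060 on the minus strand. The first 120 bases of RN7SK hold the region that HEXIM proteins bind, with the 3 GATC motifs in capitals, at positions 12, 41 and 63. Bases 6 to 116 of TERC hold the telomere template, and the capitals mark its longest run complementary to the telomere repeat, 11 bases from position 46. Positions and sequences here come from GENCODE on hg38.
RN7SK: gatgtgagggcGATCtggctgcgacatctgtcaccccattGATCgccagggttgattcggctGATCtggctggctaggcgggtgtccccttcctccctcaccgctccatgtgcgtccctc
TERC: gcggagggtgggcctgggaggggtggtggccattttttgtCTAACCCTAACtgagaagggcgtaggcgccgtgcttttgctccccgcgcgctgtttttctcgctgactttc

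The 6 RNAs together took between 4.62% and 16.8% of all counts in a library. The lowest share was in HCT116 MSTRG.4401.1 KO S16 (95% Wilson interval 4.61% to 4.62%), and the highest was in A549 MSTRG.4401.1 KO S24 (16.8% to 16.8%). The group mean was 14.9% ± 2.11 (SD, n = 3) in A549 MSTRG.4401.1 KO, where the libraries took 12.7%, 16.8% and 15.4%. These were the 3 highest shares of the series, above the 5.41%, 6.17% and 9.998% of A549 WT B. A549 MSTRG.2513.6 KO had 9.03% ± 2.32 and overlapped A549 WT B, which had 7.19% ± 2.46. In HCT116 the group means lay close together, at 5.86% ± 1.03 in WT B, 5.81% ± 1.05 in MSTRG.4401.1 KO, 6.51% ± 1.61 in WT A and 6.19% ± 0.503 in MSTRG.34636.7 KO. HCT116 MSTRG.2513.6 KO stood at 8.61% ± 2.28, of which S8 and S9 took 10.4% and 9.42% and S11 took 6.04%.

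**Figure D1:**
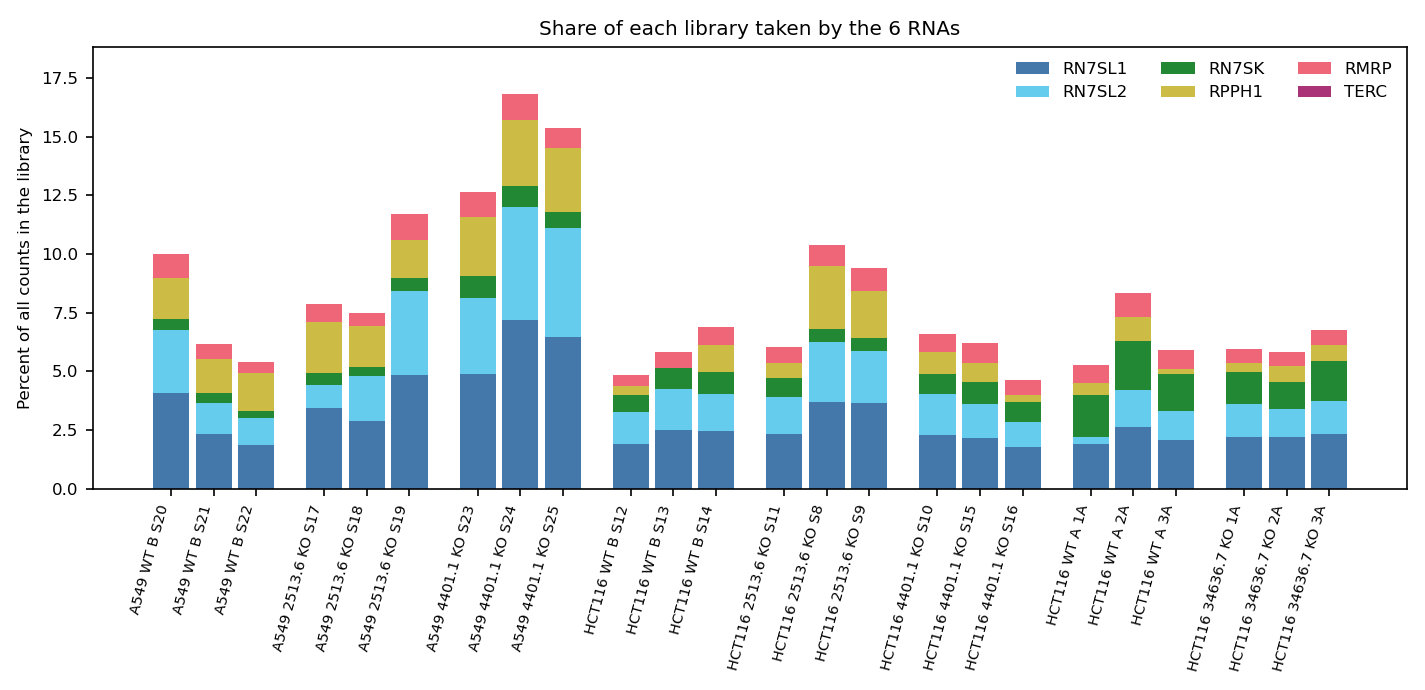
Stacked bars give the percent of all counts taken by each of the 6 RNAs in each of the 24 libraries, grouped by condition, on a linear axis from 0. The A549 MSTRG.4401.1 KO libraries reach 12.7% to 16.8%, and TERC, at 0.00163% or less, is too low to be seen.

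RN7SL1 drew more counts than any other symbol in all 8 groups, ranking by the group's mean CPM. RN7SL2 ranked between 2 and 4, RPPH1 between 3 and 9, RMRP between 4 and 7, and RN7SK between 2 and 12. TERC ranked between 10644 and 21223. Per kilobase of annotated length, which allows genes to be compared, the group mean of RN7SL1 ran from 69443 to 206807 CPM per kb and that of RN7SL2 from 34548 to 141134. RN7SK ran from 12523 to 55266, and RMRP from 23126 to 37577 on the same scale. TERC was lower by orders of magnitude, at 1.08 to 20.5 CPM per kb.

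**Figure D2:**
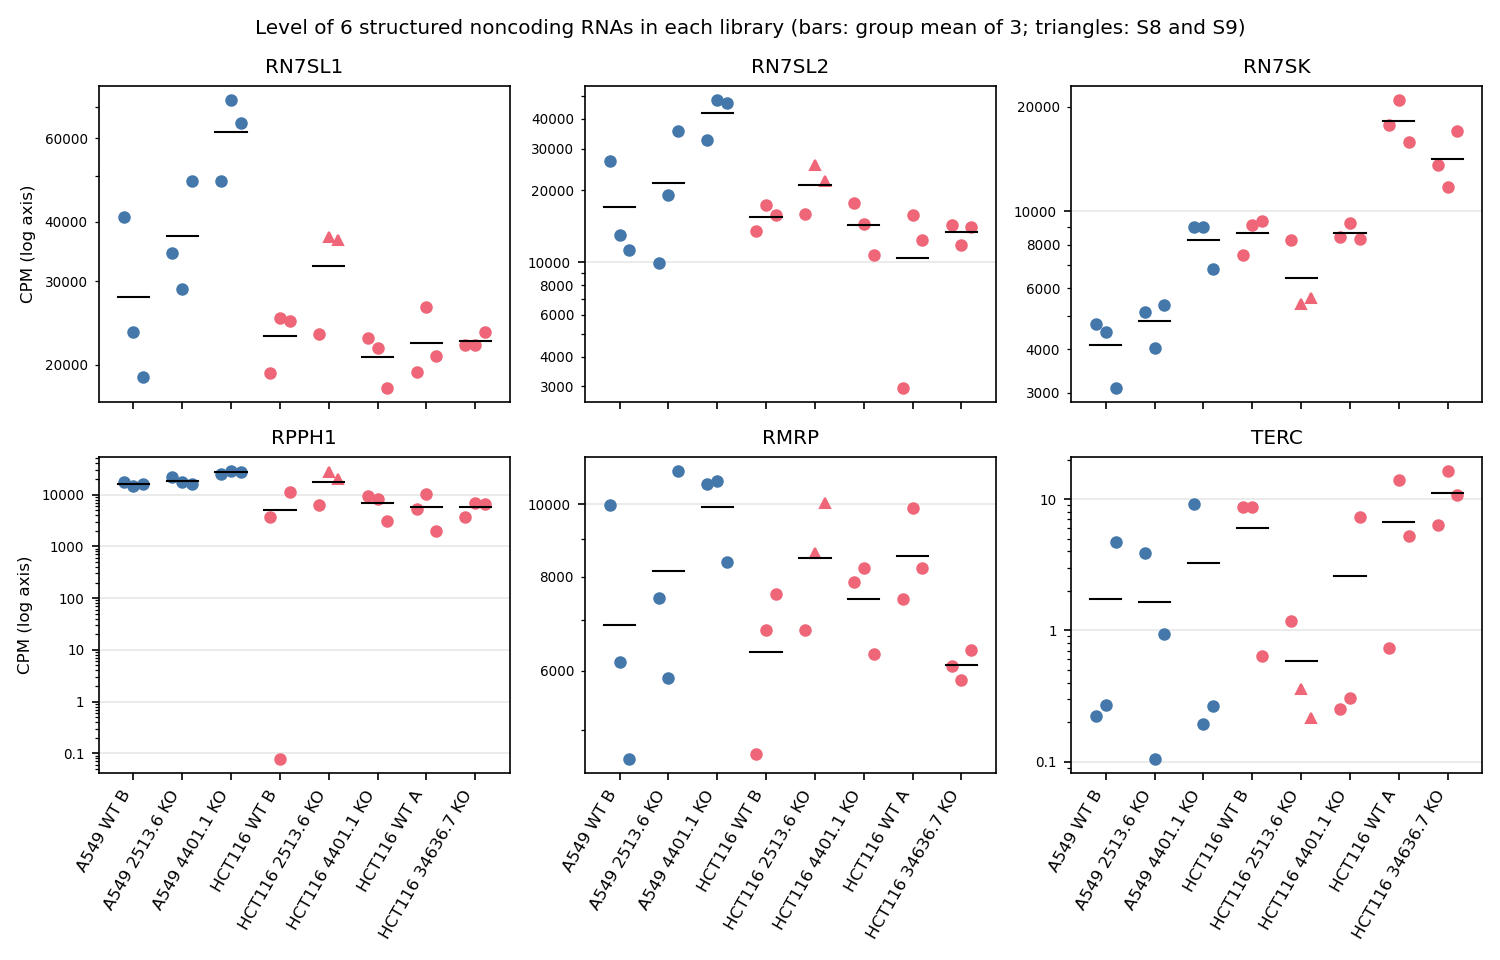
Points give CPM in each library on a log axis, by group, with A549 in blue and HCT116 in red. Black bars are means of 3 libraries and triangles are S8 and S9. RN7SL1 and RN7SL2 peak in A549 MSTRG.4401.1 KO, RN7SK is highest in HCT116 WT A and MSTRG.34636.7 KO, RPPH1 falls to 0.0779 CPM in HCT116 WT B S13, and TERC scatters within most groups.

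For 7SL, RN7SL1 measured 48881, 72135 and 64489 CPM in A549 MSTRG.4401.1 KO (S23 to S25) and 41043, 23484 and 18867 CPM in A549 WT B (S20 to S22). Every KO library exceeded every wild-type library. RN7SL1 in A549 MSTRG.2513.6 KO was 34321, 28870 and 48692 CPM, which overlapped wild type. The HCT116 groups other than MSTRG.2513.6 KO all fell between 17845 and 26483 CPM. In HCT116 MSTRG.2513.6 KO the library S11 had 23199 CPM, within that range, and S8 and S9 had 37172 and 36668 CPM, above it. In the order of group means, 6 of the 7 pairs of neighbouring groups overlapped, and only A549 MSTRG.4401.1 KO (61835 ± 11852) was apart from the next, A549 MSTRG.2513.6 KO (37294 ± 10240).

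RN7SL2 in A549 MSTRG.4401.1 KO measured 32626, 47800 and 46594 CPM, against 26704, 12989 and 11234 CPM in A549 WT B, again without overlap. All 7 pairs of neighbouring groups overlapped for RN7SL2. HCT116 WT A 1A had 2951 CPM of RN7SL2, where 2A and 3A had 15799 and 12343 CPM. A549 MSTRG.2513.6 KO S17 had 9879 CPM, where S18 and S19 had 19153 and 35567. RN7SL1 was 19300 CPM in WT A 1A, the lowest of its group but close to the 20897 of 3A. In S17 RN7SL1 was 34321 CPM, between S18 and S19. The ratio of RN7SL2 to RN7SL1 counts fell to 0.153 in WT A 1A and 0.288 in S17. Its median over the 24 libraries was 0.651 and its highest value 0.774. The other 678 symbols named as 7SL copies held 2209 to 9604 CPM in all, which was 5.31% to 11.9% of all 7SL counts.

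RN7SK measured 17746, 20846 and 15789 CPM in HCT116 WT A and 13603, 11698 and 17043 CPM in MSTRG.34636.7 KO. These 6 libraries were above the other 18. HCT116 WT B had 7457, 9102 and 9384 CPM, and HCT116 MSTRG.4401.1 KO had 8398, 9237 and 8314. A549 WT B was the lowest group, with 4740, 4492 and 3091 CPM, and A549 MSTRG.2513.6 KO was close to it with 5110, 4038 and 5361. A549 MSTRG.4401.1 KO, with 8995, 8976 and 6803 CPM, lay above both and did not overlap either. In HCT116 MSTRG.2513.6 KO the library S11 had 8240 CPM, within the range of HCT116 WT B, and S8 and S9 had 5400 and 5628, below it. Of the 7 pairs of neighbouring groups in the order of means, 5 overlapped. The other 293 symbols named as 7SK copies added only 53.5 to 475 CPM.

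RPPH1 counts in single libraries could not be read on their own. In HCT116 WT B S13 RPPH1 had 5 counts (exact Poisson interval 1.62 to 11.7), whereas AL355075.4, a clone-named symbol, had 721303 counts in that library. In 9 libraries, spread over 6 of the 8 groups, AL355075.4 had 206943 to 743177 counts, and in the other 15 it had 15 to 6197. AL355075.4 took 67.2%, 99.9993% and 0.00420% of the sum of RPPH1 and AL355075.4 in HCT116 WT B S12, S13 and S14, and 46.3%, 0.0292% and 78.5% of it in WT A 1A, 2A and 3A. GENCODE has an lncRNA without a symbol in the counts (ENSG00000259001, chr14:20343048-20343685) that covers 100% of RPPH1 on the same strand. The tables used here do not pair it with AL355075.4, and where AL355075.4 lies was not tested.

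Summing RPPH1 and AL355075.4, a step chosen after their counts were seen, brought the replicates closer in the HCT116 groups, hardly changed them in A549 WT B and MSTRG.4401.1 KO, and moved those of A549 MSTRG.2513.6 KO apart. In the last the coefficient of variation was 16.6% for RPPH1 alone and 18.8% for the sum. The median coefficient of variation within groups was 40.8% for RPPH1 alone and 6.02% for the sum. In HCT116 WT B the sum was 11192, 11241 and 11476 CPM, while RPPH1 alone was 3674, 0.0779 and 11476 CPM. The largest ratio between libraries of a group fell from 147277 for RPPH1 to 2.26 for the sum, the latter in the group with S8 and S9. The sum was highest in A549 MSTRG.4401.1 KO (27085 ± 1520 CPM) and lowest in HCT116 MSTRG.34636.7 KO (6903 ± 155), and of 7 neighbouring pairs 4 overlapped.

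**Figure D3:**
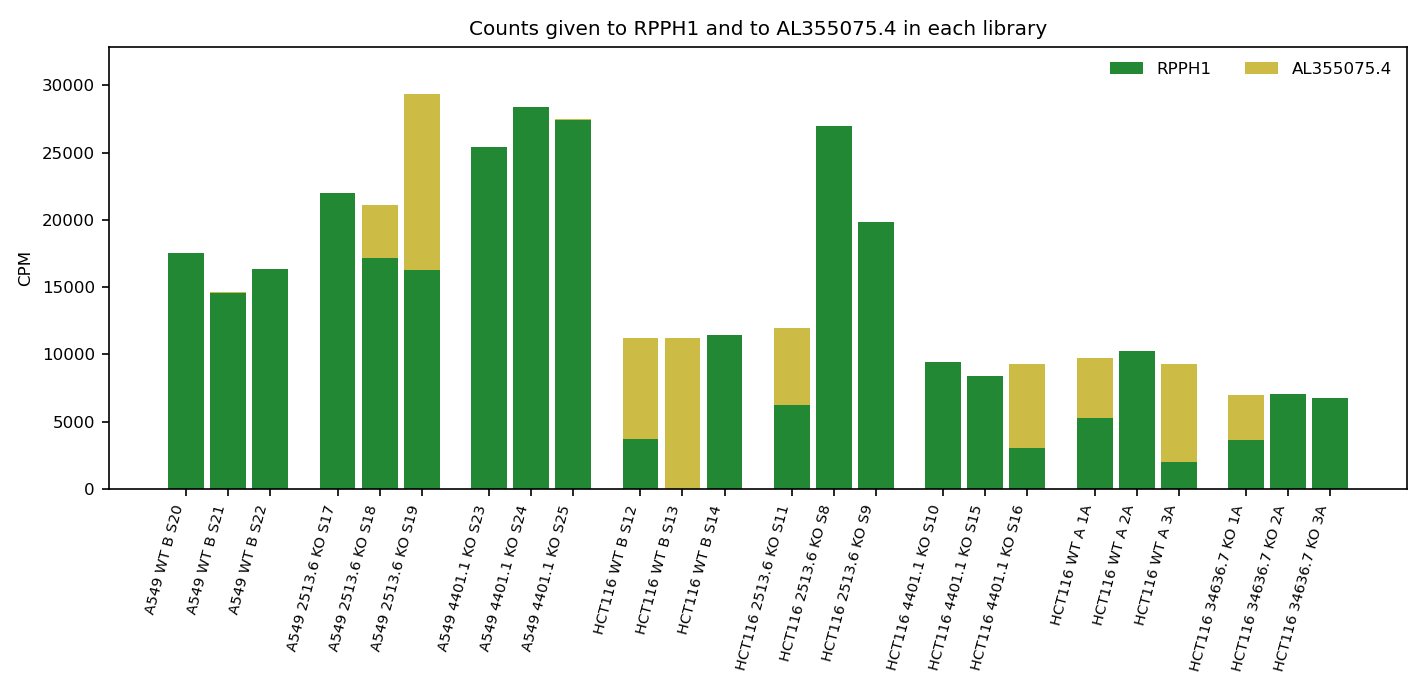
Stacked bars give the CPM of RPPH1 and of AL355075.4 in each library, on a linear axis from 0. AL355075.4 takes 18.6% to 99.9993% of the bar in 9 libraries and 0.711% or less in the other 15, while the height of the whole bar is similar within most groups.

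RMRP had the narrowest range of the abundant RNAs over all 24 libraries, from 4571 CPM in A549 WT B S22 to 11078 in A549 MSTRG.2513.6 KO S19, a ratio of 2.42, while within groups its median coefficient of variation (16.9%) was above that of RN7SK (14.9%). Its group means ran from 6105 ± 277 CPM in HCT116 MSTRG.34636.7 KO to 9920 ± 1344 in A549 MSTRG.4401.1 KO. All 7 pairs of neighbouring groups overlapped. Per kilobase, RMRP in A549 WT B (17316 to 37815 CPM per kb) was below the RPPH1 and AL355075.4 sum (44035 to 52586, taking the length of RPPH1). In HCT116 WT B the order was the same, with 17585 to 28724 for RMRP and 33610 to 34464 for the sum. In HCT116 WT A the ranges overlapped, at 28301 to 37463 for RMRP and 27816 to 30831 for the sum.

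TERC was found in every library but at few counts. It had 5 to 44 counts in 13 libraries and 195 to 1000 counts in the other 11, with nothing between, and 6 of the 8 groups held libraries of both kinds. The 3 libraries of A549 MSTRG.4401.1 KO had 307, 5 and 7 counts, and those of HCT116 MSTRG.4401.1 KO had 13, 13 and 352. For the 5 counts in S24 the exact Poisson interval, 1.62 to 11.7, does not come near the 307 counts of S23 in the same group. All 3 libraries were high only in HCT116 MSTRG.34636.7 KO (577, 974 and 1000 counts, 11.1 ± 5.03 CPM), and all 3 were low only in HCT116 MSTRG.2513.6 KO (43, 17 and 9 counts for S11, S8 and S9). GENCODE holds a second entry over 81.0% of TERC whose name is not among the counted symbols, and whether reads went to another symbol was not tested. The median ratio between the highest and lowest library of a group was 20.2 for TERC, against 1.42 for RN7SL1 and 1.32 for RN7SK.

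The comparisons were tested with edgeR's quasi-likelihood test, and a gene was called at a Benjamini-Hochberg adjusted p (FDR) under 0.1 with an absolute log2 fold change over 1. Folds are on the log2 scale of fitted counts, with their standard errors, and they were scaled by TMM rather than by the library total, so they differ somewhat from the ratios of CPM. Comparisons that share a wild-type group are not independent of each other.

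**Figure D4:**
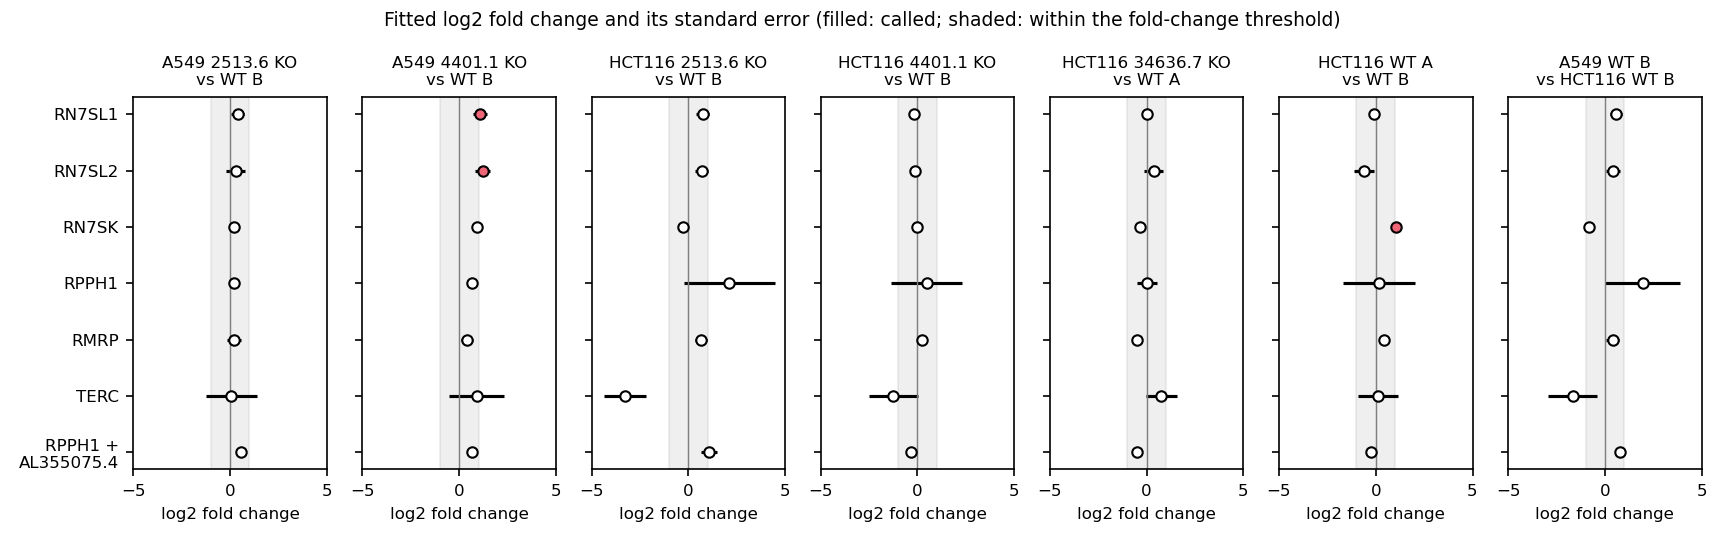
Each panel is a comparison of 3 libraries with 3. Points give the fitted log2 fold change of each RNA and of RPPH1 summed with AL355075.4, lines give the standard error, the grey band is the range within the fold threshold, and filled points were called. RN7SL1 and RN7SL2 are filled in A549 MSTRG.4401.1 KO against WT B and RN7SK in HCT116 WT A against WT B, while RPPH1 alone and TERC have long error lines in most panels.

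In A549, MSTRG.4401.1 KO had more 7SL than wild type. RN7SL1 rose by a log2 fold change of 1.06 ± 0.36 (edgeR FDR = 0.0525) and RN7SL2 by 1.22 ± 0.39 (FDR = 0.0410). These were 2 of the 6 RNAs, in a comparison where 11.1% of all tested genes were called higher and 4.32% lower. RN7SK was at 0.91 ± 0.23 (FDR = 0.0171) and RPPH1 at 0.67 ± 0.20 (FDR = 0.0344), both past the FDR but under the fold threshold. RMRP stood at 0.42 ± 0.31 (FDR = 0.317) and TERC at 0.90 ± 1.42 (FDR = 0.646). The median of the 6 was 0.91, and the median over all tested genes was 0.12. With all 7SL copies counted as 1 gene the value was 1.08 ± 0.39 (FDR = 0.0606). Counted so, the other KO groups were at 0.33 (A549 MSTRG.2513.6), 0.69 (HCT116 MSTRG.2513.6), -0.14 (HCT116 MSTRG.4401.1) and 0.13 (HCT116 MSTRG.34636.7). HCT116 WT A against WT B was at -0.21, and A549 WT B against HCT116 WT B at 0.51. All of these had an edgeR FDR of 0.242 or more. Without S8 and S9 HCT116 MSTRG.2513.6 KO was at -0.08. The interactions were not fitted this way.

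The 7SL calls in A549 MSTRG.4401.1 KO did not hold when any of several libraries was left out, although the folds stayed positive. Leaving out each of the 6 libraries in turn, RN7SL1 was called in 2 of 6 fits and RN7SL2 in 3 of 6, with log2 fold changes of 0.77 to 1.49 and 0.93 to 1.76. No member was called without S21, S22 or S25. Without S20, the wild-type library with the most 7SL, RN7SL1, RN7SL2 and RN7SK were called. DESeq2 called only RN7SL2 (1.16 ± 0.50, adjusted p = 0.0569), and edgeR's exact test called RN7SL1 and RN7SL2. The KO libraries were the shallowest of the series (25799359 to 33205007 counts, against 41563496 to 59466012 in A549 WT B), and mitochondrial genes took 3.50% to 7.87% of their counts against 1.96% to 2.37% in wild type. The part of depth and of mitochondrial RNA in the 7SL result was not tested. Without mitochondrial counts in the total, the 6 RNAs took 15.96% ± 2.61 in the KO and 7.35% ± 2.53 in wild type.

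In A549 MSTRG.2513.6 KO none of the 6 RNAs was called by edgeR's quasi-likelihood test, DESeq2 or the exact test, and 0 had an unadjusted p under 0.05. All genes called higher were 1.13% of those tested and all called lower were 1.79%. The 6 fitted log2 fold changes lay between 0.06 (TERC, ± 1.31) and 0.39 (RN7SL1, ± 0.33, FDR = 0.621). The RPPH1 and AL355075.4 sum was 21977, 21085 and 29338 CPM in the KO against 17511, 14664 and 16350 in wild type, without overlap, at 0.57 ± 0.16 (FDR = 0.111).

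In HCT116, MSTRG.4401.1 KO did not move any of the 6 RNAs past the test, and 0 had an unadjusted p under 0.05 or a call by DESeq2 or the exact test. The background was 0.996% of genes called higher and 1.62% lower. RN7SL1 was at -0.16 ± 0.14 (FDR = 0.527), RN7SL2 at -0.13 ± 0.19 (FDR = 0.722), RN7SK at -0.01 ± 0.10 (FDR = 0.953) and RMRP at 0.22 ± 0.19 (FDR = 0.520). RPPH1 alone, with 5 counts in S13, was at 0.47 ± 1.85 (FDR = 0.910). Summed with AL355075.4 it was 9468, 8381 and 9285 CPM in the KO and 11192, 11241 and 11476 CPM in wild type, without overlap, and the log2 fold change was -0.33 ± 0.05 (FDR = 0.00638), past the FDR but not the fold threshold. TERC was at -1.24 ± 1.27 (FDR = 0.609), and leaving out S16, the KO library with 352 counts, it was at -4.43 and was called (FDR = 0.0809).

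The same deletion was thus made in both cell lines, and the difference of its effects was tested as an interaction over 12 libraries, called at FDR under 0.1. Of the 6 RNAs, 3 were called, against 26.9% of all genes tested. The effect in HCT116 minus that in A549 was -1.17 ± 0.41 for RN7SL1 (edgeR FDR = 0.0658), -1.31 ± 0.47 for RN7SL2 (FDR = 0.0732) and -0.89 ± 0.26 for RN7SK (FDR = 0.0329). The median over all genes was -0.10. RMRP, at -0.15 ± 0.40 (FDR = 0.860), and TERC, at -2.15 ± 2.23 (FDR = 0.557), did not pass. The RPPH1 and AL355075.4 sum differed by -0.96 ± 0.17 (FDR = 0.00222), while RPPH1 alone, at -0.15 ± 2.10, did not pass (FDR = 1.00). RN7SK was called in 12 of 12 fits that left out a library, and RN7SL1 and RN7SL2 in 4 of 12 each, those without S20, S23, S10 or S12. Leaving out S21, S22, S24, S25, S13, S14, S15 or S16 put both above the FDR, up to 0.143 for RN7SL1 and 0.157 for RN7SL2.

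In HCT116 MSTRG.2513.6 KO against WT B no RNA was called by the quasi-likelihood test, where 0.66% of genes were called higher and 0.273% lower. TERC had an unadjusted p under 0.05 (-3.29 ± 1.09, edgeR FDR = 0.178), and DESeq2 and the exact test called it (adjusted p = 0.0127 and 0.0581). Leaving out S11 the quasi-likelihood test called TERC as well, at -4.05 (FDR = 0.0299). That fit held only S8 and S9 as KO libraries, and these resembled A549 rather than HCT116. RN7SL1 was at 0.74 ± 0.34 (FDR = 0.293) and RN7SL2 at 0.69 ± 0.32 (FDR = 0.295). Both values rested on the libraries labelled S8 and S9. Without them RN7SL1 was at -0.07 ± 0.17 (FDR = 0.799), RN7SL2 at -0.05 ± 0.15 (FDR = 0.847) and TERC at -2.43 ± 1.47 (FDR = 0.315), with S11 as the only KO library, assumed to vary like the wild types. The RPPH1 and AL355075.4 sum was 26997 and 19853 CPM in S8 and S9 and 11930 in S11, and it stood at 1.06 ± 0.40 (FDR = 0.219) with S8 and S9 and at -0.01 ± 0.04 (FDR = 0.924) without them. The interaction of MSTRG.2513.6 KO with the cell line called 0 of the 6 RNAs (0 at an unadjusted p under 0.05, 0 by DESeq2), where 9.88% of all genes were called.

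For MSTRG.34636.7 KO the control was WT A, the HCT116 wild type that carries the same letter. None of the 6 RNAs was called by any of the 3 tests, and 0.729% of genes were called higher and 0.607% lower. RMRP was at 6091, 5835 and 6390 CPM in the KO and 7472, 9890 and 8217 in WT A, without overlap, and its log2 fold change was -0.48 ± 0.18 (edgeR FDR = 0.269), the only 1 with an unadjusted p under 0.05. RN7SK was at -0.36 ± 0.23 (FDR = 0.500), RN7SL1 at 0.02 ± 0.21 (FDR = 0.980) and TERC at 0.76 ± 0.79 (FDR = 0.702). The RPPH1 and AL355075.4 sum was 6960, 7021 and 6728 CPM in the KO and 9753, 10267 and 9263 in WT A. These did not overlap, and the fold was -0.50 ± 0.15 (FDR = 0.182).

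The wild types of HCT116 differed in RN7SK. WT A stood above WT B by a log2 fold change of 1.05 ± 0.20 (edgeR FDR = 0.0144), without overlap of the libraries, and DESeq2 and the exact test called it too. RN7SK was the only 1 of the 6 to be called, in a comparison that called 3.16% of genes higher and 3.9% lower. The call was lost without WT B S12 and without WT A 2A, where the fold fell as low as 0.94. RN7SL1 was at -0.07 ± 0.22 (FDR = 0.895), RN7SL2 at -0.60 ± 0.51 (FDR = 0.550), RMRP at 0.41 ± 0.23 (FDR = 0.350) and the RPPH1 and AL355075.4 sum at -0.22 ± 0.14 (FDR = 0.411). Because RN7SK differed between the wild types, its difference in a KO depended on the control. MSTRG.34636.7 KO was at -0.36 against WT A and 0.69 against WT B, and MSTRG.4401.1 KO was at -0.01 against WT B and -1.07 ± 0.18 (FDR = 0.00563) against WT A.

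Some other short RNAs differed between these wild types by more than the 6 did, and others did not. RNY1, a Y RNA, had 0 counts in the 3 WT A libraries and 982 counts in the 3 WT B libraries, and RNY3 had 0 and 190. RNU6ATAC, of the minor spliceosome, had 3 and 498 counts. RNU4-1, a U4 gene, had 36 counts in WT A and 2826 in WT B, with mean levels of 0.190 and 15.7 CPM. RNU2-1, a U2 gene, had 159 and 2417 counts, with means of 0.805 and 13.4 CPM. The genes just named are 113 to 191 bases long apart from RNY3, at 102, and those of the 6 RNAs are 264 to 541 bases long. Short RNAs with overlapping libraries were RNU6-2 (107 bases, log2 ratio of mean CPM -0.22), RNU4ATAC (127 bases, -0.33) and RNU1-1 (164 bases, -0.78). BCYRN1, a polymerase III RNA of 200 bases, had overlapping ranges of 2.22 to 3.96 CPM in WT A and 2.73 to 3.54 in WT B. The part of these differences in the RN7SK result was not tested.

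**Figure D5:**
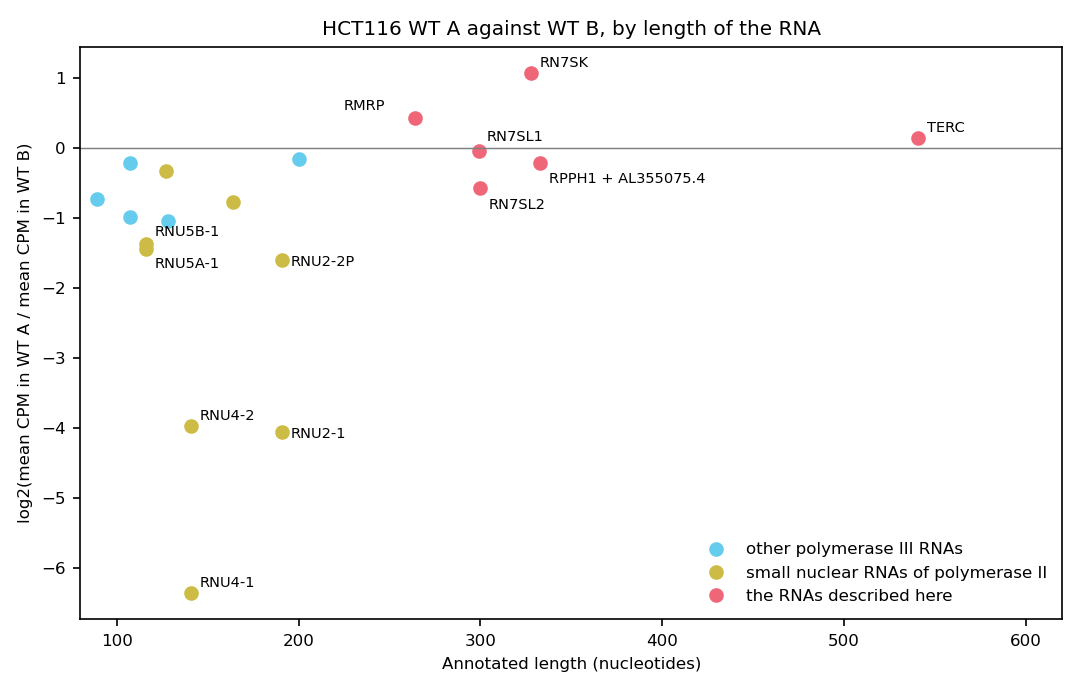
Points give log2 of the ratio of mean CPM in HCT116 WT A to that in WT B against annotated length in nucleotides, for the 6 RNAs (red, with RPPH1 summed with AL355075.4), other polymerase III RNAs (blue) and small nuclear RNAs of polymerase II (yellow). RNAs with 3 or fewer counts over either group are not drawn. RNU4-1 lies at -6.36 and RNU2-1 at -4.06, while the 6 RNAs lie between -0.58 and 1.07.

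Between the cell lines, A549 WT B against HCT116 WT B, the quasi-likelihood test called none of the 6 RNAs, nor did DESeq2 or the exact test, although 17.2% of all genes were called higher in A549 and 18.5% lower. RN7SK had an unadjusted p under 0.05 and was lower in A549, at 3091 to 4740 CPM against 7457 to 9384, by -0.80 ± 0.20 (edgeR FDR = 0.0117), under the fold threshold. Scaled by library totals alone the difference was -1.07 ± 0.17 and was called. The RPPH1 and AL355075.4 sum was higher in A549, at 14664 to 17511 CPM against 11192 to 11476, by 0.78 ± 0.10 (FDR = 0.000452), also under the fold threshold. RN7SL1 was at 0.56 ± 0.32 (FDR = 0.176) and RMRP at 0.41 ± 0.33 (FDR = 0.334), with overlapping libraries. Leaving out HCT116 S13 RPPH1 alone was called at 1.37 (FDR = 0.0458), and leaving out A549 S22 TERC was called at -4.30 (FDR = 0.0251).

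The proteins that work with these RNAs, the polymerase III machinery, the genes next to the 6 RNAs and other short RNAs were counted as 9 lists of 104 symbols. SRP72, which binds 7SL in the signal recognition particle, was the only 1 of 8 particle and receptor genes called in any comparison of 2 groups. It was at 22.6, 16.1 and 24.3 CPM in HCT116 WT A against 168, 172 and 174 in WT B, a log2 fold change of -3.03 ± 0.19 (edgeR FDR = 5.89e-05). RN7SL1 did not pass the test in that comparison. In A549 MSTRG.4401.1 KO, where RN7SL1 and RN7SL2 rose, 0 of the 8 were called by edgeR's quasi-likelihood test (7 at an unadjusted p under 0.05, as were 11322 of all 24979 genes tested, of which 11.1% were called higher and 4.32% lower) and their median log2 fold change was -0.65, against 0.12 for all genes. Of the 7 genes of the 7SK particle and P-TEFb, 0 were called in any comparison of 2 groups. The share of all genes called reached 17.2% higher and 18.5% lower, in A549 against HCT116. In WT A against WT B 3 of the 7 had an unadjusted p under 0.05 by edgeR's quasi-likelihood test, as had 6021 of all 27280 genes tested. There 3.16% of all genes were called higher and 3.9% lower.

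Among the 11 protein genes of RNase P and RNase MRP, RPP40 was lower in A549 MSTRG.4401.1 KO, at 5.96, 5.31 and 4.88 CPM against 12.2, 13.3 and 12.9 (-1.33 ± 0.15, edgeR FDR = 0.000819). POP1, the largest protein of both enzymes, was lower in HCT116 MSTRG.2513.6 KO, at 36.9, 35.5 and 38.0 CPM against 101, 96.4 and 98.4 (-1.21 ± 0.15, FDR = 0.0820). S11 was at the level of S8 and S9, and without S8 and S9 the log2 fold change was -1.50, with S11 as the only KO library. HCT116 WT A, the other wild type, had 27.1, 47.4 and 78.3 CPM of POP1, and S11 lay within that range. A549 WT B had 35.3, 38.1 and 35.8 CPM, close to S8 and S9. RPP30 was lower in HCT116 MSTRG.34636.7 KO, at 14.4, 14.8 and 16.6 CPM against 29.5, 39.6 and 34.4 in WT A (-1.18 ± 0.15, FDR = 0.0187). Neither RPPH1 nor RMRP was called in these comparisons, although RPPH1 was past the FDR in A549 MSTRG.4401.1 KO. Between the cell lines RPP25 (1.71 ± 0.11) and POP4 (1.37 ± 0.09) were higher and POP1 (-1.17 ± 0.06) lower in A549, so 2 of 11 were called higher and 1 lower, where 17.2% of all genes were called higher and 18.5% lower.

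Of the 9 telomerase genes, TERT, the reverse transcriptase that copies TERC, was higher in HCT116 MSTRG.4401.1 KO, at 48.1, 49.0 and 50.6 CPM against 22.4, 18.2 and 20.7 (1.26 ± 0.08, edgeR FDR = 0.000120). GAR1, an H/ACA protein that binds TERC, was lower in A549 MSTRG.4401.1 KO, at 1.42, 2.71 and 4.61 CPM against 8.51, 4.88 and 4.45, which overlapped (-1.12 ± 0.45, FDR = 0.0882). TEP1, a telomerase-associated protein, was at 9.794, 11.04 and 18.003 CPM in HCT116 WT A against 78.7, 77.6 and 74.9 in WT B (-2.57 ± 0.25, FDR = 0.000453). Each was the only 1 of the 9 called in its comparison. Of all genes tested, 0.996% were called higher in HCT116 MSTRG.4401.1 KO. The share called lower was 4.32% in A549 MSTRG.4401.1 KO and 3.9% in WT A against WT B. TERC passed the quasi-likelihood test in no comparison fitted with all its libraries.

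Of the 18 polymerase III subunit genes, POLR3G was lower in HCT116 WT A than in WT B, at 15.3, 20.8 and 23.6 CPM against 58.4, 62.8 and 58.6 (-1.60 ± 0.18, edgeR FDR = 0.00102), and lower in A549 WT B than in HCT116 WT B (-1.30 ± 0.08), as was POLR2H (-1.12 ± 0.07). No other subunit gene was called in a comparison of 2 groups. Of all genes tested, 3.16% were called higher and 3.9% lower in WT A against WT B, and 17.2% and 18.5% in A549 against HCT116. In A549 MSTRG.4401.1 KO the shares were 11.1% and 4.32%, and in HCT116 MSTRG.4401.1 KO 0.996% and 1.62%. Of 19 transcription factor genes, GTF3C4, a TFIIIC subunit, was lower in A549 MSTRG.4401.1 KO, at 61.5, 47.3 and 48.3 CPM against 111, 118 and 121 (-1.24 ± 0.11, FDR = 0.000281). SNAPC4 (-1.30 ± 0.27) and BRF1 (-1.08 ± 0.18) were lower in HCT116 WT A than in WT B. Of the 8 neighbouring genes, GSTA4, next to RN7SK, was higher in A549 than in HCT116 (3.89 ± 0.24) where RN7SK was lower. CCDC107, next to RMRP, was higher in WT A than in WT B (1.26 ± 0.28) and LRR1 lower (-1.13 ± 0.17). LRRC34 was called lower in HCT116 MSTRG.4401.1 KO (-1.75 ± 0.56, edgeR FDR = 0.0927). It was at 0.639, 0.399 and 0.599 CPM against 0.629, 3.19 and 1.63, ranges that overlap. Its counts were few, at 33, 17 and 29 in the KO and 33, 205 and 98 in wild type.

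Among the small nuclear RNAs of polymerase II, RNU1-1, a U1 gene, was called higher in A549 MSTRG.4401.1 KO, at 52.6, 362 and 145 CPM against 84.2, 12.9 and 17.2 in wild type, ranges that overlap (2.17 ± 0.85, edgeR FDR = 0.0798). RNU4-1, RNU2-1, RNU4-2 and RNU2-2P were lower in HCT116 WT A than in WT B, by -6.43, -4.08, -4.06 and -1.64. Of the 14 other polymerase III RNAs counted, 5 were tested in WT A against WT B, and RNY1, RNY3 and RNU6ATAC were called lower there. Between the cell lines 5 were tested, and RNU6ATAC was called higher in A549 (20.5, 3.04 and 2.96 CPM against 1.66, 3.51 and 3.09, edgeR FDR = 0.0740). Only S20 lay above the HCT116 range, so the ranges overlap. RNU6-2 was called lower in A549. Over all 9 lists, 0 genes of 93 tested were called in A549 MSTRG.2513.6 KO (9 at an unadjusted p under 0.05), 4 in A549 MSTRG.4401.1 KO (1 higher and 3 lower) and 14 in WT A against WT B (1 higher and 13 lower). Of all genes tested, 1.13% were called higher and 1.79% lower in A549 MSTRG.2513.6 KO, where 4300 of 25666 had an unadjusted p under 0.05. The shares called were 11.1% higher and 4.32% lower in A549 MSTRG.4401.1 KO, and 3.16% and 3.9% in WT A against WT B.

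The 24 libraries also show which RNAs varied together, given here as a description, since libraries of a group share their cells and CPM values share a total. RN7SL1 and RN7SL2 had r = 0.82 on log2(CPM + 1), and RN7SL1 and the RPPH1 and AL355075.4 sum had 0.82. RN7SL1 and RMRP had 0.72, and 0.87 once each value was taken relative to its group mean. RN7SK had -0.27 with RN7SL1, 0.13 with RMRP and -0.64 with the RPPH1 sum, and relative to group means it had 0.27, 0.52 and -0.33. RPPH1 and AL355075.4 had -0.48. Among 19001 other genes those most like RN7SL1 were SCARNA6, a Cajal body RNA (0.93), MT-TP, a mitochondrial tRNA (0.92), and THSD4-AS1 (0.91). Those most like RN7SK were AC025031.5 (0.93), DLEU1 (0.93) and ZFPM2 (0.92), and those most like the RPPH1 sum were RHBDF1 (0.96), HILPDA (0.95) and FAM224B (0.95). The likeness was lower for RN7SL2 (RNVU1-29, 0.86), RPPH1 alone (RUSC1-AS1, 0.80), TERC (AC011290.2, 0.72) and RMRP, whose nearest gene was again SCARNA6 (0.71). RPPH1 alone had 0.0779 CPM in HCT116 WT B S13 and 1995 CPM or more in every other library. Each r of RPPH1 alone, that with AL355075.4 included, therefore leans heavily on S13.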

How the data were processed

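The labels placed 24 libraries in 8 groups of 3. The authors trimmed reads with Trim Galore 0.6.6 and checked them with FastQC 0.11.9, per the submitters' processing notes, aligned them to hg38 with HISAT2 2.2.1, and quantified genes with StringTie, and the deposited values are whole-number counts for each symbol, 1 column a library, with no scaling. The annotation release and the use of strand in counting are not given in the sources used here. Counts were taken for the 60641 symbols that all files list, and 3 symbols found only in the files numbered 1A to 3A (RNA5SP71, RNA5SP85 and RNU11) were left out.

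From the counts, CPM and library shares were computed on library totals. Each comparison was fitted with edgeR 4.0.16 (R 4.3.3, limma 3.58.1): TMM, filterByExpr on the groups compared, glmQLFit and glmQLFTest, Benjamini-Hochberg adjustment over all tested genes, with the study's thresholds for a call, FDR < 0.1 and an absolute log2 change > 1. Interactions used 4 groups and FDR < 0.1. DESeq2 1.42.0 and the alternatives of the closing section were run beside it, and the scripts were tested on simulated data. Replicates differed by more than sampling noise (chi-square per degree of freedom of 17.5 or more). All 6 members are named, with list genes called at a mean of at least 1 CPM (up to 4 per list and comparison, by fold) and the 3 genes most correlated with each member; RNY3, RNU6-2, RNU4ATAC and BCYRN1 were added after their values were seen. The members and the lists were chosen with earlier results of these data known. GENCODE on hg38, the build the submitters name, gave positions and sequences. Some sequences and 1 list gene are not reported here.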

Additional observations from a re-analysis of the deposited data

Results flagged for a closer look

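These values were listed because the effect of the same deletion differed between the cell lines by an interaction test (edgeR quasi-likelihood, FDR under 0.1), and each is the log2 effect in HCT116 minus that in A549. For MSTRG.4401.1 KO the difference was -1.17 for RN7SL1, -1.31 for RN7SL2, -0.89 for RN7SK and -0.96 for RPPH1 summed with AL355075.4. Of the protein genes of the same particles, 3 of 7 for 7SK and P-TEFb, 8 of 11 for RNase P and RNase MRP and 5 of 8 for the signal recognition particle were called with a positive difference and 0 with a negative one, where 26.9% of all genes were called. Of the 7SK particle and P-TEFb, LARP7 was at 0.75, MEPCE at 0.45 and CDK9 at 0.42. Of RNase P and RNase MRP, the most shifted were RPP40 at 1.31, POP7 at 0.94, RPP30 at 0.70 and POP5 at 0.60. Of the signal recognition particle and its receptor, SRPRB was at 1.01, SRP68 at 0.86, SRP9 at 0.67 and SRP54 at 0.54.

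Of the polymerase III subunits, POLR2L was at 0.83, POLR3B at 0.64, POLR3G at 0.63 and POLR2E at 0.60, and of its transcription factors GTF3C4 was at 1.53, GTF3C5 at 1.02, GTF3C1 at 0.69 and MAF1 at 0.67. Of the telomerase genes, TERT was at 1.22, DKC1 at 0.92, WRAP53 at 0.87 and NOP10 at 0.83. Of the neighbouring genes, LRR1 was at 0.49 and PARP2 at 0.46. Over the 9 lists 38 genes of 94 tested were called with a positive difference and 1 with a negative one. Of all genes 26.9% were called, in either direction. A positive difference does not mean a larger change in HCT116. For MSTRG.4401.1 KO the median log2 fold change of the signal recognition particle genes was -0.65 in A549 and -0.02 in HCT116. It was -0.48 and 0.01 for RNase P and RNase MRP, and -0.66 and 0.06 for telomerase. Small nuclear RNAs of polymerase II went the other way, at 1.00 and -0.20. For MSTRG.2513.6 KO, with S8 and S9, the difference was -1.36 for POP1, 3.70 for GSTA4, -0.98 for POLR2H, 0.59 for SNAPC3 and -0.77 for NAF1. Without S8 and S9, with S11 as the only HCT116 KO library, it was -1.61 for POP1, 2.12 for GSTA4 and -0.63 for POLR2H. For SNAPC3 it was 0.54 and for NAF1 -0.62. These are effect sizes only and do not show that a call held without S8 and S9.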

How the results depend on the processing

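Of the log2 fold changes of the 6 RNAs under the alternatives, 841 kept direction and side of the threshold, 59 reversed, 16 passed it newly and 30 lost it. The cause of a change was not tested. In A549 MSTRG.4401.1 KO, 2 RNAs were called, against 1 at FDR < 0.05, 1 by DESeq2, 1 with no filter and 4 with no fold threshold. Leaving out a library, 0 to 3 were called. With copies summed, RN7SL1 and RN7SL2 became 1 gene, and that gene was called. HCT116 MSTRG.2513.6 KO went from 0 to 1 by DESeq2, by the exact test and against WT A, and was 0 to 1 leaving out a library. HCT116 MSTRG.4401.1 KO went from 0 to 1 against WT A and was 0 to 1 leaving out a library, as was WT A against WT B (1 called). A549 against HCT116 went from 0 to 1 with no fold threshold and with library totals, and was 0 to 1 leaving out a library. The MSTRG.4401.1 interaction went from 3 to 1 at FDR < 0.05, and was 1 to 3 leaving out a library.

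Signs reversed as follows. Without S8 and S9, HCT116 MSTRG.2513.6 KO gave -0.074 for RN7SL1, -0.051 for RN7SL2 and -0.0068 for the RPPH1 sum, the interaction gave -0.46, -0.35 and -0.57 for these and -0.19 for RMRP, and the 6 RNAs took 6.04% of counts. Against the other wild type, MSTRG.4401.1 KO gave 0.46 for RN7SL2 and -0.20 for RMRP, and MSTRG.34636.7 KO gave -0.056 for RN7SL1, -0.24 for RN7SL2 and 0.69 for RN7SK. With upper-quartile scaling, RN7SK stood at 0.016 for MSTRG.4401.1 KO, RN7SL1 -0.0075 and RPPH1 -0.044 in MSTRG.34636.7 KO, and RN7SL1 0.020 between the wild types. With library totals, TERC was -0.024 in A549 MSTRG.2513.6 KO, RN7SK 0.00041 for MSTRG.4401.1 KO of HCT116 and RPPH1 -0.0097 in MSTRG.34636.7 KO. With the members left out of the scaling, RN7SL1 was -0.0040 and RPPH1 -0.0065 there. Summed with AL355075.4, RPPH1 took the value -0.33 for MSTRG.4401.1 KO of HCT116, -0.50 for MSTRG.34636.7 KO and -0.22 between the wild types.

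Leaving out a library, A549 MSTRG.2513.6 KO ran from -0.23 to 0.88 for RN7SL2, -0.047 to 0.66 for RMRP and -1.66 to 2.73 for TERC, and A549 MSTRG.4401.1 KO from -2.89 to 1.44 for TERC. HCT116 MSTRG.4401.1 KO ran from -0.33 to 0.048 for RN7SL2, -0.12 to 0.045 for RN7SK and -0.12 to 1.94 for RPPH1. MSTRG.34636.7 KO ran from -0.077 to 0.12 for RN7SL1, -0.075 to 0.75 for RN7SL2 and -0.38 to 0.66 for RPPH1. WT A against WT B ran from -0.19 to 0.019 for RN7SL1, -0.46 to 1.65 for RPPH1 and -0.96 to 0.62 for TERC, and A549 against HCT116 from -0.13 to 0.68 for RN7SL2 and -0.012 to 0.66 for RMRP. The MSTRG.2513.6 interaction ran from -0.16 to 0.58 for RN7SL1, -0.22 to 0.89 for RN7SL2 and -0.022 to 0.69 for RMRP, and the MSTRG.4401.1 interaction from -0.73 to 1.32 for RPPH1, -0.58 to 0.16 for RMRP and -5.33 to 1.65 for TERC.

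Deviations of same-numbered libraries had r of 0.010 to 0.081 (MSTRG.34636.7 KO with WT A) and -0.163 to -0.007 (A549 WT B with HCT116 WT B) over 19039 genes. Differently numbered libraries had -0.071 to 0.023 and -0.093 to 0.109. With 3 libraries a group these small values cannot settle whether the numbers pair the samples, which were treated as unpaired. With the replicate block 0 of the 6 RNAs were called in both comparisons that allow it, as without it. The precision of TERC is limited by counts of 5 to 44 in 13 libraries, which did not follow the library total (13 counts in S10 of 51616807, 352 in S16 of 48405641).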

Other observations

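Further genes whose log2(CPM + 1) ran most like that of an RNA over the 24 libraries are given as a description, since the libraries share groups and depth. For RN7SL2 they were SNORD3B-1 (r = 0.84) and LAG3 (0.83), for RPPH1 alone AC093827.4 (0.78) and IL1R1 (0.68), for RMRP AC106886.6 (0.71) and AL133216.2 (0.70), and for TERC RFTN2 (0.72) and POU2F1 (0.70). With each value taken relative to its group mean, the gene most like RN7SL1 was MT-TE (0.90), a mitochondrial tRNA, and that most like RN7SL2 was EEF1D (0.88). For RN7SK it was HOXA4 (0.84), for RPPH1 RUSC1-AS1 (0.85), for RMRP BCLAF1P2 (0.93) and for TERC CMC1 (0.79). The values of RPPH1 alone lean heavily on HCT116 WT B S13, where it had 0.0779 CPM.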
